A study of Schistosoma mansoni with 6 samples.

Results

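The minichromosome maintenance (MCM) helicase family of the blood fluke Schistosoma mansoni is described here, gene by gene, in irradiated and mock-irradiated adult males. Its members are the rows of the deposited gene table whose product name contains "DNA replication licensing factor MCM", which were 10 of 13305 rows. A list of 8 identifiers drawn up earlier lacks Smp_037590 (named MCM3) and Smp_169450 (named MCM8). Both match the name, so all 10 are described. By name they are a pair of MCM2 genes (Smp_079560 and Smp_054840), MCM3, MCM4 (Smp_172530), MCM5 (Smp_143490), MCM6 (Smp_094140), MCM7 (Smp_032500), a pair of MCM8 genes (Smp_181870 and Smp_169450) and a gene named MCM1 (Smp_151560). Each row is treated as a gene. Whether the rows named MCM2, which neighbour each other, are separate genes or parts of 1 gene was not examined, and the ratios, losses, shares and counts over the 7 rows named MCM2 to MCM7 count them separately.

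The study asked which transcripts depend on radiation-sensitive cells in the worm body. Irradiated males received 200 Gy of γ rays from a Co60 source, and control males a mock exposure. Worms of both groups were of the NMRI strain, came from mice at day 43 of infection and spent 48 hours in Basch medium 169, after which head and testes were cut away. RNA of the remaining posterior body was extracted from pools of 14 to 18 worms and sequenced as 3 libraries per group, A, B and C, on a single lane. Whether each pool came from its own infection is not in the labels, and the p-values then speak only of the spread among these pools.

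MCM2 to MCM7 form the ring-shaped helicase that unwinds DNA in eukaryotes. The ring is loaded onto origins before S phase by the origin recognition complex, Cdc6 and Cdt1, and is switched on when Cdc45 and the GINS complex join it. MCM8 acts with MCM9 in homologous recombination in vertebrates, while the MCM1 of budding yeast is a transcription factor and not part of the ring. In flatworm bodies the dividing somatic cells are neoblasts, the stem cells that renew other tissues, and in planarians, their free-living relatives, MCM transcripts are used to mark them.

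Total exon reads were 21594259 to 29641087 in irradiated libraries and 17577059 to 26858868 in control libraries. The 4 neoblast genes used as markers were picked by the study's own authors in such worms, so their direction is not independent evidence. Their counts scaled by library total (CPM) summed to 29.6 to 37.9 in irradiated libraries and 110.1 to 115.8 in control libraries, and all 4 fell. Markers named for testis and sperm summed to 428.7 to 436.7 CPM in irradiated libraries and 447.3 to 467.7 CPM in control libraries although testes had been cut away, and none of the 10 tested changed. Gut markers summed to 22902 to 23980.0 CPM in irradiated libraries and 24090 to 26231 CPM in control libraries, lower without overlap, although none of the 13 tested changed. Tegument markers summed to 14578 to 15455 CPM in irradiated libraries and 13299 to 14132 CPM in control libraries, higher without overlap, and 2 of 33 rose. The sums of muscle, neuron and ovary or vitelline markers overlapped between groups, with 2 of 23 muscle markers lower, 1 of 16 neuron markers lower and 1 higher, and neither of the 2 ovary or vitelline markers called. In RNA of a whole body region, fewer cells of a type and less RNA per cell cannot be told apart.

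All 10 MCM genes had enough reads to be tested, and 9 fell after irradiation, while none rose. The 7 genes named MCM2 to MCM7 all fell, by 1.38-fold to 23.8-fold. Over all 8885 genes tested, 221 fell (2.49%) and 55 rose (0.619%) in the same edgeR quasi-likelihood test at a Benjamini-Hochberg adjusted p under 0.05. The median log2 fold change was -1.36 over the 10 members and 0.00 over all genes. The fall was at least 2-fold for 7 members, against 1.13% of all genes, and at least 4-fold for 4 members, against 0.664% of all genes. In RPKM, the deposited unit, which scales reads by exon length and by library total, 9 members were lower in every irradiated library than in any control library, which held for 11.8% of all genes. The summed neoblast, testis and gut markers were also lower, and their part in these falls was not tested.

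**Figure D1:**
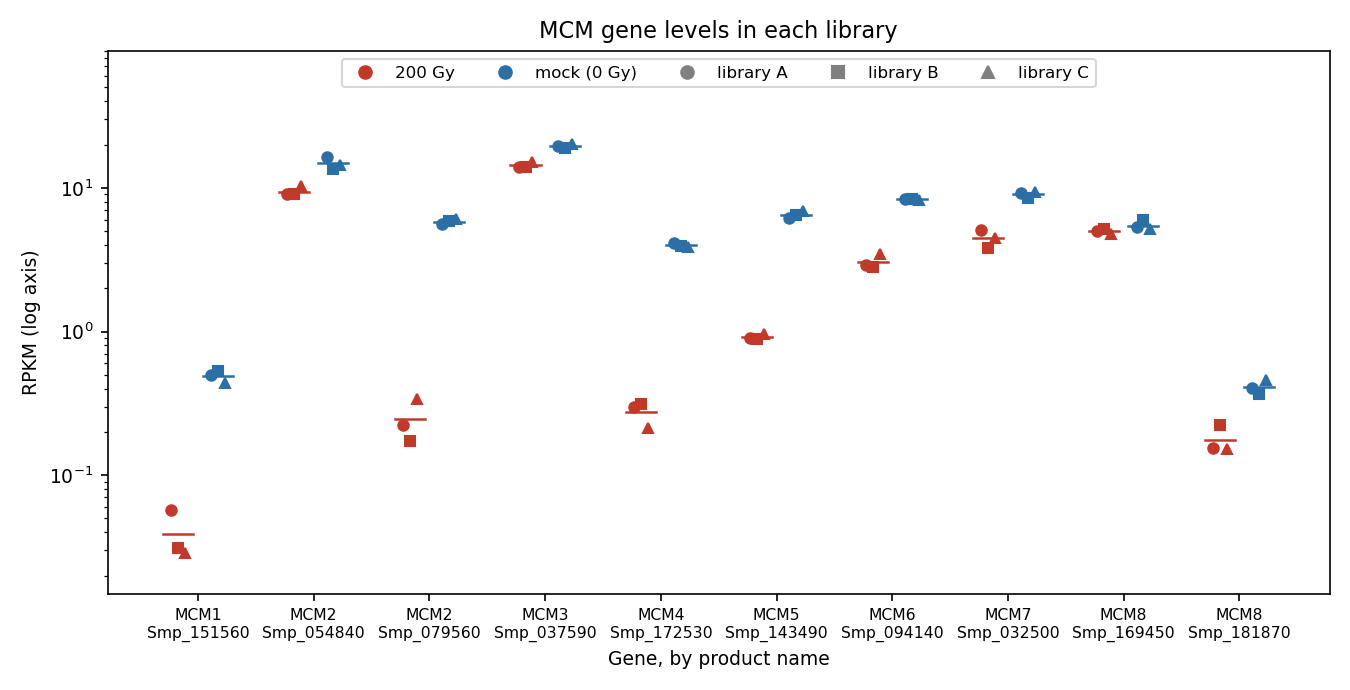
RPKM of each MCM gene, in the order of its product name, in each irradiated (200 Gy) and each control (mock) library, on a log axis, with a line at each group's mean. The points of the groups are separate for 9 genes and overlap for Smp_169450, and the gap is widest for the MCM2 gene Smp_079560.

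The MCM2 gene Smp_079560, MCM4 and MCM5 showed the steepest falls among the ring genes, whereas the other MCM2 gene, Smp_054840, fell by 1.60-fold. MCM2 carries a histone-binding end and forms, with MCM5, the gate through which the ring opens around DNA. Which of the rows named MCM2 encodes these parts was not examined. Smp_079560 had 0.224, 0.174 and 0.341 RPKM in irradiated libraries A, B and C, against 5.56, 5.87 and 6.06 RPKM in control libraries. The highest irradiated library was thus far below the lowest control. The gene averaged 0.246 ± 0.0853 RPKM in irradiated worms and 5.83 ± 0.253 RPKM in control worms (SD, n = 3 each), and its log2 fold change was -4.57 (SE 0.17, adjusted p = 4.94e-07 with edgeR). In reads, this was 14, 8 and 17 in irradiated libraries against 313, 295 and 227 in control libraries. The 95% Poisson interval of the 39 irradiated reads together was 27.7 to 53.3, which covers counting error only.

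MCM4, whose long N-terminal tail is a main target of the kinase that fires origins, had 0.296, 0.311 and 0.214 RPKM in irradiated libraries and 4.12, 3.97 and 3.88 RPKM in control libraries. Again no library of one group came near the other. Its mean was 0.274 ± 0.0521 RPKM in irradiated worms and 3.99 ± 0.124 RPKM in control worms, and its log2 fold change was -3.88 (SE 0.14, adjusted p = 3.85e-07 with edgeR). MCM5 had 0.896, 0.884 and 0.959 RPKM in irradiated libraries and 6.15, 6.50 and 6.86 RPKM in control libraries. Both groups were tight, and 14.0% of the control mean was measured in irradiated worms. Its log2 fold change was -2.85 (SE 0.10, adjusted p = 3.85e-07 with edgeR).

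MCM6 and MCM7 fell less. MCM6, one of the subunits of the helicase core that works together with MCM4 and MCM7, had 2.93, 2.81 and 3.46 RPKM in irradiated libraries and 8.43, 8.34 and 8.27 RPKM in control libraries. The groups were well separated, and the log2 fold change was -1.47 (SE 0.08, adjusted p = 1.05e-05 with edgeR). MCM7 had 5.09, 3.82 and 4.44 RPKM in irradiated libraries and 9.19, 8.49 and 9.43 RPKM in control libraries. Irradiated worms thus kept 49.3% of the control mean, without overlap between libraries. The log2 fold change was -1.04 (SE 0.10, adjusted p = 3.20e-04 with edgeR).

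The smallest falls within the ring were those of the second MCM2 gene and of MCM3. Smp_054840 had 9.03, 9.02 and 10.2 RPKM in irradiated libraries and 16.5, 13.5 and 14.4 RPKM in control libraries. The groups did not overlap, and the log2 fold change was -0.68 (SE 0.08, adjusted p = 0.00168 with edgeR). MCM3, the partner of MCM5 in the ring, was the most abundant member per length, with 14.0, 14.0 and 15.1 RPKM in irradiated libraries and 19.5, 18.9 and 20.1 RPKM in control libraries. Irradiated libraries were all lower, at 73.9% of the control mean, and its log2 fold change was -0.46 (SE 0.05, adjusted p = 7.99e-04 with edgeR).

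The genes placed outside the ring were placed there by product name alone, and what the gene named MCM1 encodes was not examined. Of these genes, MCM1 fell, the MCM8 gene Smp_181870 fell by a call that depended on the setting, and the MCM8 gene Smp_169450 did not pass the test. MCM1 had 0.0573, 0.0312 and 0.0287 RPKM in irradiated libraries and 0.496, 0.527 and 0.440 RPKM in control libraries. These are 5, 2 and 2 exon reads in irradiated libraries against 39, 37 and 23 in control libraries, so its level in irradiated worms is loosely known. The Poisson interval of its 9 irradiated reads was 4.12 to 17.1. In irradiated B and C its reads were below the 3 taken as the limit of detection in a library. Its log2 fold change was -3.56 (SE 0.33, adjusted p = 2.31e-04 with edgeR). It was -1.14 with gene reads, introns included (adjusted p = 0.0241 with edgeR), and -0.87 and -2.08 with limma on log2(RPKM + 0.5) and log2(RPKM + 0.1) (adjusted p = 0.00776 and 0.00313).

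Smp_181870 was as scarce as MCM1 in control worms, with 0.154, 0.225 and 0.152 RPKM in irradiated libraries and 0.403, 0.369 and 0.459 RPKM in control libraries. Although these groups did not overlap, only 40 exon reads in irradiated worms and 85 in control worms stand behind them. Its log2 fold change was -1.24 (SE 0.25, adjusted p = 0.0332 with edgeR). The call was lost with DESeq2 (adjusted p = 0.0576), with limma on log2(RPKM + 0.5) (adjusted p = 0.128), with gene reads in place of exon reads (adjusted p = 0.147 with edgeR), and in edgeR without any of irradiated A, irradiated C, control A, control B or control C (adjusted p = 0.0501 to 0.151). Smp_169450 had 4.98, 5.15 and 4.77 RPKM in irradiated libraries and 5.31, 5.94 and 5.15 RPKM in control libraries. Irradiated B and control C were level, and the log2 fold change of -0.17 (SE 0.08) did not pass the test (adjusted p = 0.27 with edgeR).

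In order of mean RPKM, irradiated worms had MCM3, MCM2 Smp_054840, MCM8 Smp_169450, MCM7, MCM6, MCM5, MCM4, MCM2 Smp_079560, MCM8 Smp_181870 and MCM1. Neighbours whose libraries overlapped in that order were Smp_169450 and MCM7, MCM4 and Smp_079560, and Smp_079560 and Smp_181870. Control worms had MCM3, MCM2 Smp_054840, MCM7, MCM6, MCM5, MCM2 Smp_079560, MCM8 Smp_169450, MCM4, MCM1 and MCM8 Smp_181870. There, Smp_079560 overlapped with Smp_169450, and MCM1 with Smp_181870. The MCM2 gene Smp_079560 was above MCM4 in every control library, and MCM4 was above it in irradiated A and B.

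The authors' deposited table gives its own fold changes for these genes, as signed ratios of mean RPKM with irradiated over control and a fall written as minus the inverse. In the authors' deposited table they run from -23.7 for Smp_079560 (unadjusted P = 3.46e-06) to -1.35 for MCM3 (unadjusted P = 5.83e-04) and -1.10 for Smp_169450 (unadjusted P = 0.135).

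The RPKM losses of the ring members varied less than their levels and folds, a comparison chosen after the values were seen. The loss is given as control mean minus irradiated mean, in RPKM, so that a positive value means less in irradiated worms. It was 5.58 (SE 0.15) for MCM2 Smp_079560, 5.59 (SE 0.21) for MCM5, 5.28 (SE 0.21) for MCM6 and 5.09 (SE 0.51) for MCM3. It was 5.37 (SE 0.96) for MCM2 Smp_054840, 4.58 (SE 0.46) for MCM7 and 3.72 (SE 0.08) for MCM4. The largest loss was thus 1.5 times the smallest, whereas the largest mean level was 58.4 times the smallest in irradiated worms and 4.89 times in control worms. A loss cannot exceed the control mean, which was 3.99 RPKM for MCM4, 5.83 RPKM for Smp_079560 and 6.50 RPKM for MCM5. Since these genes kept little of it, their losses mostly restate their control levels. MCM4 could not have lost as much as any other ring gene.

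Over these 7 genes the loss averaged 5.03 RPKM with an SD of 0.674, a coefficient of variation of 13.4%. The levels themselves had a coefficient of variation of 115% in irradiated worms and 56.7% in control worms. Among the 212 other genes that fell, the median loss was 2.33 RPKM, with 0.578 at the tenth percentile and 8.79 at the ninetieth. The loss of 27 of those genes (12.7%) lay within the range of the ring subunits. Outside the ring, MCM1 lost 0.449 RPKM and Smp_181870 lost 0.234 RPKM. Their control means were only 0.488 and 0.411 RPKM, so losses as large as those of the ring genes were not possible. Smp_169450, with a control mean of 5.47 RPKM, lost 0.498 RPKM (SE 0.27).

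The difference in RPKM between 2 genes of a library stays the same after irradiation when both lose the same amount. For MCM5 and MCM2 Smp_079560 the losses differed by 0.00893 RPKM (SE 0.07). For MCM5 and MCM4 they differed by 1.88 RPKM (SE 0.28). Of the 21 pairs of ring genes, the difference within a library did not overlap between irradiated and control libraries in 4, and 3 of these involved MCM4. Among all pairs of tested genes 24.7% did not overlap. With 3 libraries against 3, an exact permutation test cannot give a p below 0.1, so a pair that overlaps is not shown to have lost equal amounts. After Benjamini-Hochberg adjustment over the 21 pairs the lowest p of the exact tests was 0.525.

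**Figure D2:**
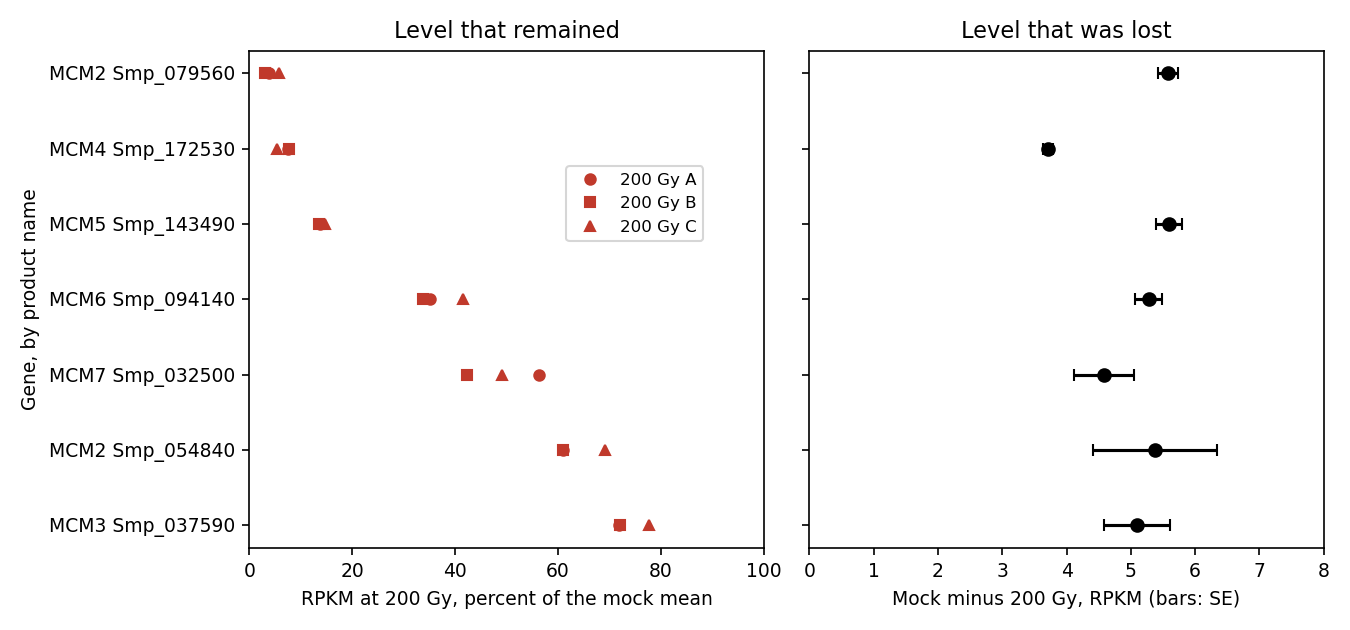
For the 7 genes named MCM2 to MCM7, the RPKM of each irradiated library as a percentage of the control mean (left) and the RPKM lost, control mean minus irradiated mean with its SE over 3 libraries per group (right). The level that remained runs from 4.23% for Smp_079560 to 73.9% for MCM3 on average, and the loss lies between 3.72 and 5.59 RPKM.

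The makeup of the summed ring transcripts differed between groups. The summed RPKM of the 7 genes was 32.5, 31.1 and 34.8 in irradiated libraries and 69.4, 65.5 and 69.0 in control libraries, so that irradiated worms had 48.2% of the control sum. MCM3 made up 44.0 ± 1.09% of it in irradiated worms and 28.7 ± 0.529% in control worms (SD, n = 3 each). Smp_054840 made up 28.7 ± 0.835% in irradiated worms and 21.7 ± 1.72% in control worms. Both shares were higher in every irradiated library than in any control library.

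The shares of MCM2 Smp_079560, MCM4, MCM5 and MCM6 were lower in every irradiated library than in any control library. Smp_079560 made up 0.744 ± 0.214% of the sum in irradiated worms and 8.58 ± 0.502% in control worms. MCM4 made up 0.843 ± 0.201% in irradiated worms and 5.87 ± 0.224% in control worms, and MCM5 2.79 ± 0.0513% in irradiated worms and 9.57 ± 0.617% in control worms. MCM6 was at 9.34 ± 0.537% in irradiated worms and 12.3 ± 0.393% in control worms. The share of MCM7 overlapped between groups, at 13.6 ± 1.83% in irradiated worms and 13.3 ± 0.349% in control worms. The most abundant of the 7 genes had 62.5 to 80.5 times the RPKM of the least abundant in irradiated libraries and 4.73 to 5.18 times in control libraries.

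**Figure D3:**
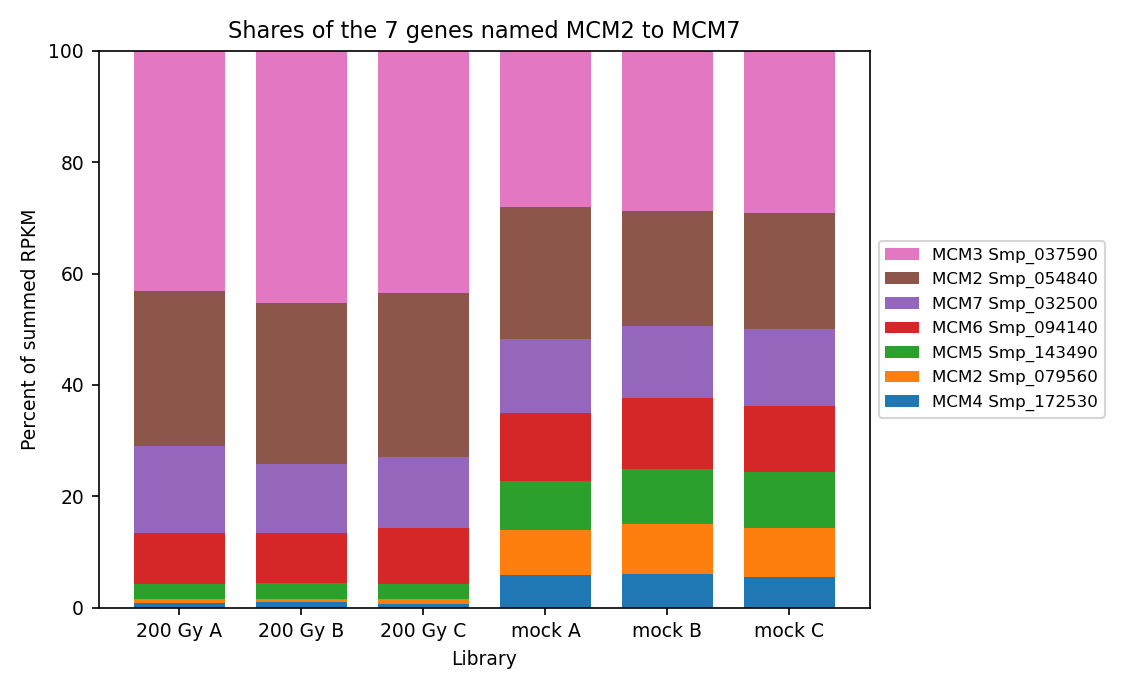
Share of each gene named MCM2 to MCM7 in their summed RPKM, in percent, in each irradiated (200 Gy) and each control (mock) library. MCM3 and Smp_054840 together take the larger part of the bar in irradiated libraries, and the parts of Smp_079560, MCM4 and MCM5 are thin there.

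Ratios between members within a library need no scaling between libraries. Of the 45 pairs among the 10 genes, 38 (84.4%) had ratios that did not overlap between irradiated and control libraries, against 25.9% of all pairs of tested genes. Each of the 38 reached the smallest p an exact permutation test allows here, 0.1, which is 0.118 after adjustment over the 45 pairs, so none passes a threshold of 0.05. The log2 ratio of Smp_079560 to MCM6 was -3.71, -4.01 and -3.35 in irradiated libraries and -0.60, -0.51 and -0.45 in control libraries. It was lower by 3.17 in irradiated worms on the log2 scale, which is a change of the ratio by 8.99-fold.

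The log2 ratio of MCM5 to MCM3 was -3.98 ± 0.0108 in irradiated worms (SD, n = 3 each). In control worms it was -1.58 ± 0.0697. The irradiated SD was the smallest of any pair in either group. It rests on 69, 50 and 59 exon reads of MCM5 in irradiated libraries A, B and C. The Poisson interval of these 178 reads together was 153 to 206, so counting error alone is wider than this SD. A tightly held ratio is therefore not shown. The log2 ratio of MCM6 to MCM7, a pair of the helicase core, was -0.53 ± 0.234 in irradiated worms. It was -0.11 ± 0.082 in control worms, without overlap. The 7 pairs whose ratios overlapped lay within 2 sets. Smp_079560, MCM4 and MCM1, the genes with the steepest falls, made up 3 of them. The other 4 were Smp_181870 with MCM6, MCM7 and Smp_054840, and MCM7 with Smp_054840.

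The 2 genes named MCM2 differed widely in fold. Their losses differed by 0.21 RPKM, with an SE of 1.05 that is too wide to show equal losses. Smp_079560 has 1827 bases of exon in 8 exons and Smp_054840 has 1386 bases in 7 exons. In the RefSeq table of assembly ASM23792v2 they stand next to each other with no protein-coding gene between them. The log2 ratio of Smp_079560 to Smp_054840 was -5.33, -5.69 and -4.91 in irradiated libraries and -1.57, -1.20 and -1.25 in control libraries. The gene on the far side of Smp_054840, Smp_151420 (phospholipase D), had a log2 fold change of -0.03, and that on the far side of Smp_079560, Smp_079570, of 0.07, and neither passed the test. Exon reads mapped to a single place throughout for 8 members, and pooled over the 6 libraries the lowest share of such reads was 98.7%, for Smp_079560.

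Among members with at least 500 exon reads, Smp_054840 alone differed without overlap in both its intron-exon and its exon-exon share. MCM5, MCM6 and Smp_169450 differed in a single share, and MCM1, with fewer reads, in both. The intron-exon reads of Smp_054840 numbered 88, 64 and 69 in irradiated libraries and 88, 57 and 35 in control libraries. Its intron reads were few, 11 in irradiated worms (0.965% of its gene reads) and 30 in control worms (1.81%). What its boundary reads come from was not tested. Reads spanning an intron-exon boundary were 20.6%, 20.4% and 17.8% of its exon reads in irradiated libraries and 12.5%, 11.1% and 8.54% in control libraries. The groups did not overlap (exact permutation test, two-sided p = 0.1, the smallest possible), and the pooled shares had 95% Wilson intervals of 17.4 to 22.0% in irradiated worms and 9.62 to 12.7% in control worms. Its reads joining 2 exons were 34.6%, 31.5% and 33.9% of exon reads in irradiated libraries and 38.7%, 36.9% and 42.9% in control libraries, again without overlap. Counting only reads that join exons, its log2 fold change was -0.92 (adjusted p = 4.47e-04 with edgeR) in place of -0.68.

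Of the 8 members with at least 500 exon reads in all, 3 had a higher intron-exon share in every irradiated library than in any control library, which 2.5% of such genes in the table had, and none had a lower one, which 8.23% had. In reads joining exons, 1 member was higher without overlap, against 5.68% of such genes, and 1 was lower, against 5.03%. The higher one was MCM5, with 49.2 to 52.2% in irradiated libraries and 46.2 to 47.3% in control libraries, and the lower one Smp_054840. The members with the higher intron-exon share were, besides Smp_054840, MCM6, with 5.04%, 5.49% and 5.33% in irradiated libraries and 3.73%, 2.20% and 1.83% in control libraries, and Smp_169450, with 3.79%, 5.90% and 3.85% in irradiated libraries and 3.36%, 3.50% and 3.17% in control libraries. The MCM2 gene Smp_079560 had none of its 39 exon reads across such a boundary in irradiated worms and 1 of 835 in control worms. MCM1 had no read that joins exons in any irradiated library and 2, 5 and 2 in control libraries.

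**Figure D4:**
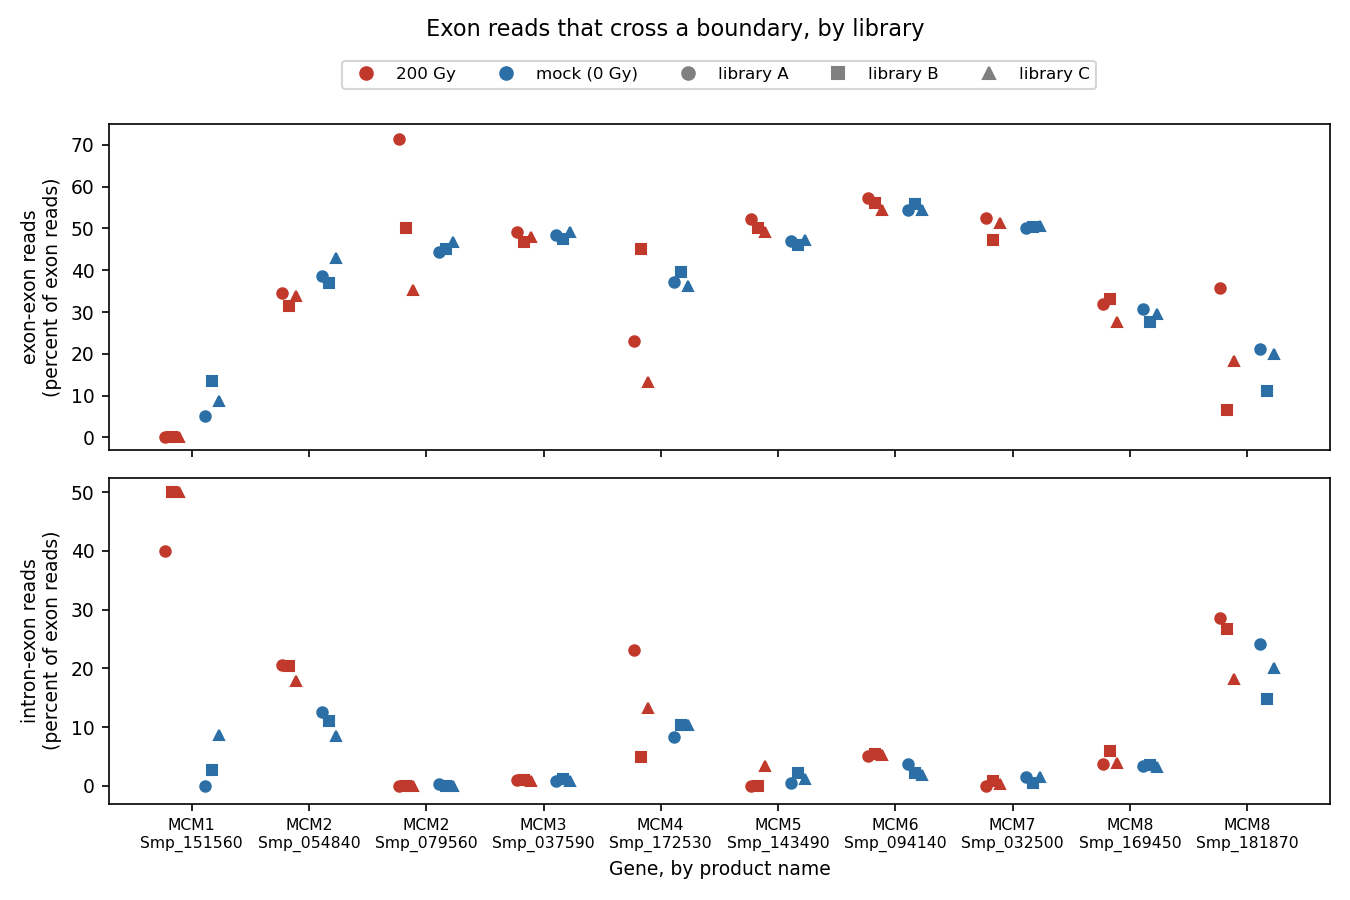
Reads joining exons (top) and reads across intron-exon boundaries (bottom), each as a percentage of exon reads, in every irradiated (200 Gy) and control (mock) library for all 10 MCM genes. The intron-exon share of Smp_054840 is 17.8 to 20.6% in irradiated libraries and 8.54 to 12.5% in control libraries. The irradiated points of MCM1, Smp_181870, Smp_079560 and MCM4 rest on few reads, those of MCM1 on 5, 2 and 2 exon reads.

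Of the 7 members with enough intron reads to be tested, none was called in the main edgeR fit or by DESeq2. Of 7539 genes, that edgeR fit called 0.252% lower and 0.398% higher, and DESeq2 called 0.305% lower. All 7 had log2 fold changes below 0, where the median over all 7539 genes was -0.00387. An unadjusted edgeR p under 0.05 was seen for 4. Its share over all genes was not worked out, so this count is not read as a fall of the family in intron reads. MCM5 had 25 intron reads in irradiated worms and 79 in control worms, with a log2 fold change at -1.60 (SE 0.39, adjusted p = 0.0833 with edgeR). For MCM3 it was -0.44 (SE 0.12, adjusted p = 0.106 with edgeR), close to that of its exon reads. MCM1 had 104 intron reads in irradiated worms and 133 in control worms, so introns held 92.0% of its gene reads in irradiated worms and 57.3% in control worms.

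Of the other genes of DNA replication, a minority fell. A list of 44 genes, chosen by product name with MCM genes left out, had 43 tested, of which 11 fell (25.6%), none rose and 32 did not pass the test, with a median log2 fold change of -0.12 against 0.00 over all genes. By role, 2 of 7 licensing genes, 2 of 3 helicase activation genes, 3 of 9 polymerase genes, 2 of 14 fork genes and 2 of 10 nucleotide genes fell. Of all genes tested, 2.49% fell.

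Among licensing genes, which load the ring, 2 origin recognition complex subunits fell. Smp_052390 averaged 0.591 ± 0.0414 RPKM in irradiated worms and 1.63 ± 0.109 RPKM in control worms (log2 fold change -1.48, SE 0.17, adjusted p = 0.00104 with edgeR). Smp_127070 averaged 0.641 ± 0.0524 RPKM in irradiated worms and 1.43 ± 0.0513 RPKM in control worms (log2 fold change -1.19, SE 0.13, adjusted p = 7.21e-04 with edgeR). The licensing gene not called that had the most reads in CPM, Smp_149120 (named insect origin recognition complex subunit), was at 8.86 ± 0.475 RPKM in irradiated worms and 9.56 ± 0.164 RPKM in control worms. Per exon length, cdc6 (Smp_145740), named after its values were seen, was higher, at 16.5 ± 0.457 RPKM in irradiated worms and 16.99 ± 0.503 RPKM in control worms, and was not called.

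Of the 3 genes that switch the loaded ring on, 2 fell. The gene named topbp1 (Smp_133990), a scaffold for helicase activation and checkpoint signalling, averaged 0.0541 ± 0.0175 RPKM in irradiated worms and 0.451 ± 0.0807 RPKM in control worms (log2 fold change -3.03, SE 0.29, adjusted p = 3.20e-04 with edgeR). The Cdc45-related gene (Smp_047610), whose protein joins the ring to form the active helicase, averaged 0.202 ± 0.0267 RPKM in irradiated worms and 1.25 ± 0.149 RPKM in control worms (log2 fold change -2.63, SE 0.22, adjusted p = 1.16e-04 with edgeR). The GINS gene named partner of sld5 (Smp_007000) averaged 2.89 ± 0.308 RPKM in irradiated worms and 3.35 ± 0.422 RPKM in control worms and was not called (log2 fold change -0.21, SE 0.17).

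Of the polymerases, the catalytic subunit of DNA polymerase alpha (Smp_178260), which starts new strands together with primase, averaged 0.246 ± 0.0397 RPKM in irradiated worms and 1.07 ± 0.0138 RPKM in control worms (log2 fold change -2.16, SE 0.14, adjusted p = 2.45e-05 with edgeR). The large subunit of primase (Smp_079050) was lower, at a log2 fold change equal to -1.48 (SE 0.13, adjusted p = 1.54e-04 with edgeR). One of 3 rows named DNA polymerase epsilon, catalytic subunit (Smp_210940), which extends the leading strand, was at -0.34 (SE 0.07, adjusted p = 0.0384 with edgeR), a call lost in 9 alternatives, among them leaving out irradiated A, irradiated C, control B or control C (adjusted p = 0.0559 to 0.197 with edgeR or limma over the 9). The table holds 2 further rows of that name, given after their values were seen. Smp_210950 averaged 32.5 ± 0.627 RPKM in irradiated worms and 32.9 ± 1.01 RPKM in control worms, and Smp_209030 43.3 ± 1.09 RPKM in irradiated worms and 41.0 ± 1.72 RPKM in control worms, and neither was called. The small subunit of DNA polymerase delta (Smp_076660) was at 0.04 (SE 0.06) and was not called.

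At the fork, the claspin-like gene (Smp_128210) averaged 0.168 ± 0.024 RPKM in irradiated worms and 0.654 ± 0.0167 RPKM in control worms (log2 fold change -1.98, SE 0.17, adjusted p = 1.77e-04 with edgeR). The sliding clamp PCNA (Smp_046500) was abundant, with 48.6, 45.1 and 50.1 RPKM in irradiated libraries and 66.6, 61.2 and 65.1 RPKM in control libraries, and its log2 fold change was -0.45 (SE 0.05, adjusted p = 0.00103 with edgeR), close to that of MCM3. Its loss was 16.4 RPKM. DNA topoisomerase II (Smp_065840) was at -0.10 (SE 0.05) and was not called.

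The large subunit of ribonucleotide reductase (Smp_009030), which makes deoxynucleotides, was lower, at a log2 fold change equal to -0.47 (SE 0.05, adjusted p = 6.95e-04 with edgeR). The small chain (Smp_055890) was at -0.31 (SE 0.07, adjusted p = 0.0395 with edgeR), a call lost in 10 alternatives, among them leaving out irradiated C, control A, control B or control C (adjusted p = 0.0503 to 0.166 with edgeR or limma over the 10). Thymidylate kinase (Smp_001360) was at 0.09 (SE 0.06) and was not called.

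**Figure D5:**
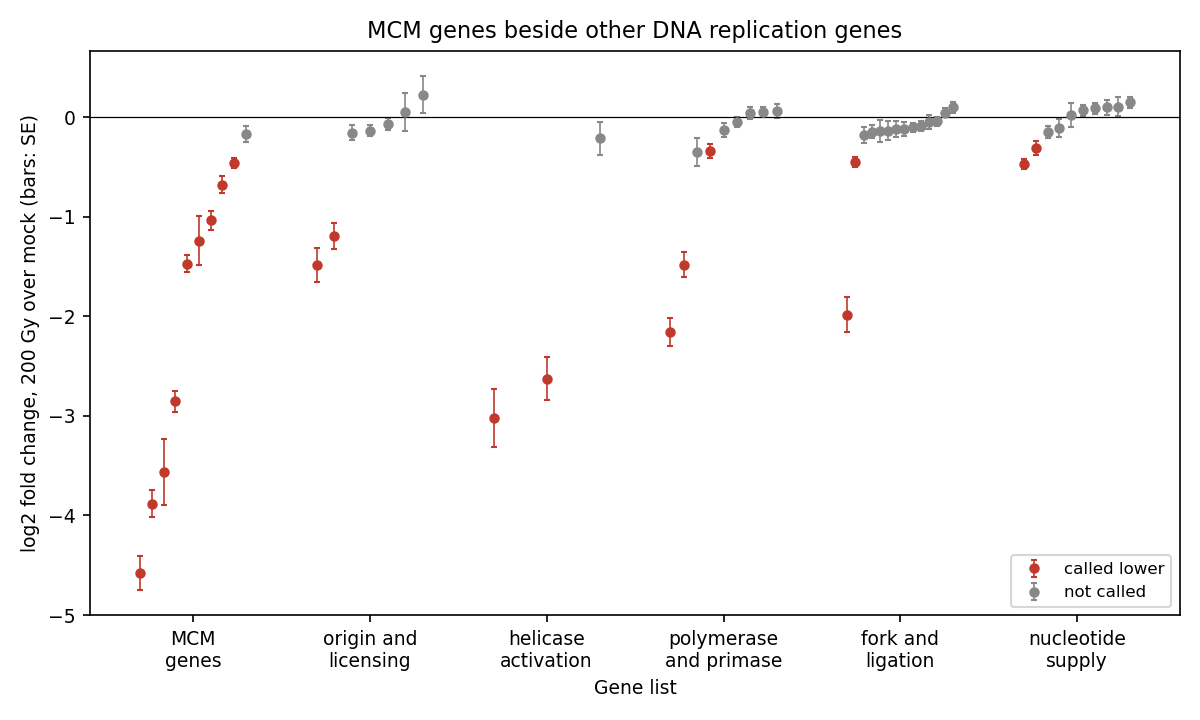
Log2 fold change with its SE, irradiated over control, of each MCM gene and each other tested DNA replication gene by role, with genes called lower in red and genes not called in grey. Called genes lie below 0 in every role, and the median of the list outside the MCM family is -0.12.

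Likeness to other genes was measured as the root mean square difference of log2 CPM profiles over the 6 libraries, each taken relative to the gene's control mean, among 4812 genes with a product name and sufficient level. This is a ranking of the same values and carries no test. Nearest to the mean profile of the 7 ring genes were a serine/threonine kinase (Smp_080730) at 0.15, DNA polymerase alpha (Smp_178260) at 0.18, another kinase (Smp_166150) at 0.20, the repair ATPase rad50 (Smp_135900) at 0.20 and a phosphatidylinositol 3- and 4-kinase (Smp_162340) at 0.23. By this choice all 5 fell, with log2 fold changes between -2.29 and -2.04, beside -2.09 for the mean profile. No single ring gene lay between MCM6 (-1.47) and MCM5 (-2.85).

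For single members, the nearest profile to MCM2 Smp_079560 was that of cyclin B (Smp_082490), a mitotic cyclin, at 0.21. Cyclin B averaged 0.338 ± 0.0484 RPKM in irradiated worms and 7.21 ± 0.721 RPKM in control worms. MCM4 was nearest to the cohesion gene eco1 (Smp_065150) at 0.20, and MCM1 to a gene related to slbp (Smp_137390) at 0.26. MCM5 was nearest to Smp_179320, a gene of the neoblast list named eukaryotic translation initiation factor 2c, at 0.14, with 1.36 ± 0.173 RPKM in irradiated worms and 9.86 ± 0.123 RPKM in control worms. MCM6 was nearest to serine hydroxymethyltransferase (Smp_179710) at 0.14.

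MCM7 was nearest to the p53 gene (Smp_139530) at 0.11, which averaged 4.46 ± 0.299 RPKM in irradiated worms and 9.58 ± 0.196 RPKM in control worms. Smp_181870 was nearest to notch (Smp_105360) at 0.07, Smp_054840 to a hes-related transcription factor (Smp_024860) at 0.12, and MCM3 to DNA photolyase (Smp_033700) at 0.04. Smp_169450, the member that did not pass the test, was nearest to a tyrosine kinase (Smp_162900) at 0.02, which was not called either. The distances of members with few reads include counting error, so they are not comparable between members of unlike abundance.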

How the data were processed

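RNA sequencing of 6 libraries, 3 irradiated and 3 control, was used as deposited. The table holds raw counts, per the file headers, of gene, exon, exon-exon and intron-exon reads, total and unique, with exon number and length. RPKM values were deposited by the authors and equalled exon reads over exon length and all gene reads of the library, to within a relative 3.77e-08. The deposited table also holds the authors' fold change and unadjusted P-value. Aligner, counter, build and annotation: not given in the sources used here. The 2535 rows without exons, which hold 0.654 to 1.40% of gene reads, were left out.

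Exon reads of 8885 genes kept by filterByExpr were scaled by TMM and fitted with edgeR 4.0.16 in R 4.3.3, irradiated against control, with quasi-likelihood tests and Benjamini-Hochberg adjustment over all genes tested. Calls are at adjusted p under 0.05. The SE comes from the log2 fold change over the root of its F. Scripts were tested on simulated data. Intron reads are gene reads minus exon reads. Ratios and losses used RPKM, with exact permutation tests. The limit of detection was 3 exon reads in a library, 0.101 to 0.171 CPM.

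Alternatives were scaling by RLE or upper quartile, a filter of 1 read in all or of 5 CPM in 3 libraries, DESeq2 1.42.0, limma 3.58.1 on log2(RPKM + 0.5) and log2(RPKM + 0.1), unique reads, the replicate letter as a block, and leaving out each library. Gene reads with introns, the 8 earlier identifiers and, except for the ratio of Smp_079560 to MCM6, exon-exon reads were added after seeing the data. The members and lists were chosen with earlier results of these data known. The planned design spoke of 8 members, and all 10 rows that match the name were used. Named genes were all members, up to 4 called genes with the largest change and the most abundant uncalled gene of each replication group, and the genes of nearest profile above a mean log2 CPM of 1. RefSeq ASM23792v2 was used only for which genes neighbour each other, with 9647 identifiers matched.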

Additional observations from a re-analysis of the deposited data

How the results depend on the processing

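Between 7 and 9 MCM genes were called lower in exon reads, and none higher, in every alternative run, beside 1.02% to 9.58% of all genes called lower. The runs with 7 were those with the 5 CPM filter and with exon-exon reads. Each tested only 8 members, as MCM1 and Smp_181870 had too few reads there. The call of Smp_181870 was lost in 9 of its 15 alternatives, and Smp_169450 was called in none. No called member or replication gene changed sign, and the uncalled polymerase delta gene Smp_076660 (0.04) was at -0.06 with exon-exon reads and -0.01 without control B. Besides MCM1, limma at the larger pseudocount gave log2 fold changes of -3.09 for MCM2 Smp_079560, -2.54 for MCM4 and -0.43 for Smp_181870. Gene reads gave -0.55 for Smp_181870. The same limma setting gave -0.78 for topbp1, -1.32 for the Cdc45-related gene, -0.79 for the claspin-like gene, -0.97 and -0.76 for the origin recognition genes Smp_052390 and Smp_127070, and -1.08 for polymerase alpha, and gene reads gave -1.20 for topbp1, -0.90 for the claspin-like gene and -1.24 for polymerase alpha, all still called. Over all genes, 221 were called lower, against 77 with the 5 CPM filter, 490 with DESeq2, and 140 and 139 with limma at the larger and smaller pseudocount. Leaving out 1 library gave 119 to 723: 123, 723 and 127 without irradiated A, B and C, and 359, 126 and 119 without control A, B and C. The replication list had 4 genes called with the 5 CPM filter. The ratio of largest to smallest ring loss was 1.47 to 1.61 when 1 library was left out. Whether the replicate letters pair the libraries is not in the labels. The correlation of deviations was 0.04 for A, 0.18 for B and -0.10 for C. Between unlike letters it was -0.21 to 0.18, and 3 libraries per group are too few to tell. With the replicate block 851 genes were called lower in exon reads. In intron reads the block called 1 of the 7 MCM genes tested lower, beside 1.34% of 7539 genes. Low read numbers limit MCM1 and Smp_181870. Intervals cover counting error only.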
